A study of Mus musculus with 30 samples.

Results

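Beta globin, a subunit of the oxygen carrier of red cells, and the chromosome 7 genes Psmd8 and Picalm were followed in mouse cardiac ventricles that had lost the transcription factor Sox6 in striated muscle. Their probes were selected by gene symbol, from the platform annotation or from the gene tables of the study, and this gave 7 probes of the 45281 on the array (5 for Hbb-b1, 1 for Psmd8 and 1 for Picalm), or 3 of the 6467 named genes tested. All 7 passed the filter on dim signals, as did 17997 probes in all. Of the 7, 6 have no name in the platform annotation and carry one through the study's table of genes changed in the KO. Whether the study's other gene tables also name them was not checked. The genes were proposed because of their change in the KO. The difference between KO and control at each age is therefore described below without a test, while changes with age within a genotype were tested.

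RNA of ventricles was hybridised to 1-colour Illumina MouseWG-6 v2.0 bead arrays, with 3 arrays, labelled as replicates, in each of 10 groups. The 5 Sox6 KO groups (Sox6loxp/loxp; MCK-Cre) and the 5 control groups (MCK-Cre) were collected at P1, P7, P14, P30 and P60, where P is the postnatal day. Every animal carried the MCK-Cre transgene, was male according to the study's methods and had the strain label FVB/B6 hybrid. MCK-Cre acts in heart and skeletal muscle cells, so the other cells of a KO ventricle, including those of its blood, are not targeted by this promoter, and the label of the controls names no floxed Sox6 allele. No probe carried the name Sox6 here, so the deletion itself could not be checked on the arrays. The sources do not say which parental strain each chromosome 7 came from, and this was not tested.

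Hemoglobin is a tetramer of alpha and beta globin chains made in developing red cells. The adult beta globin genes of the mouse lie side by side on chromosome 7, and laboratory strains carry different versions of the pair, called haplotypes. In RefSeq the pair Hbb-bs and Hbb-bt sits in the chromosome 7 reference (GRCm38.p6), whereas Hbb-b1 and Hbb-b2 are placed on a separate sequence of another haplotype. These genes are close copies. No probe sequences were used here, so which of them a beta globin probe detects was not checked, and Hbb-b1, Hbb-bs and Hbb-bt below are the names that the probes carry. Psmd8 encodes a subunit of the lid of the 19S regulatory particle, which feeds ubiquitinated proteins into the proteasome. Picalm encodes a clathrin assembly protein that binds membrane lipids and the coat during endocytosis. Sox6 is an HMG-box factor that binds DNA at an AACAAT-like core and is known in mouse red cell precursors as a repressor of embryonic globin genes.

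The promoters of the genes are shown because their transcripts were compared between Sox6 KO and control ventricles. They come from RefSeq for GRCm38.p6 and run from 250 bases before to 50 bases after the annotated start. A promoter was found for Psmd8, Picalm, Hbb-bs and Hbb-bt. Hbb-b1 is named only. Capitals mark matches on either strand to AACAAT (the Sox core), to the core promoter letters TATAAA, to CCAAT, to the globin promoter letters CACCC and to the erythroid factor letters AGATAA. No match shares bases with another, though a pair of CCAAT matches on opposite strands adjoin in Hbb-bt.
Psmd8, chr7:29180624-29180923, minus strand: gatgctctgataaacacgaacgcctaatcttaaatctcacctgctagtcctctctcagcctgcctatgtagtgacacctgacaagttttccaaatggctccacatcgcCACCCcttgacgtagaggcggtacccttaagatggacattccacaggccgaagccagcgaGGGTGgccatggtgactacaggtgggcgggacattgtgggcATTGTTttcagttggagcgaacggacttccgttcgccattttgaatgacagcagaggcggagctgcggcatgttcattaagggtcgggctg
Picalm, chr7:90129963-90130262, plus strand: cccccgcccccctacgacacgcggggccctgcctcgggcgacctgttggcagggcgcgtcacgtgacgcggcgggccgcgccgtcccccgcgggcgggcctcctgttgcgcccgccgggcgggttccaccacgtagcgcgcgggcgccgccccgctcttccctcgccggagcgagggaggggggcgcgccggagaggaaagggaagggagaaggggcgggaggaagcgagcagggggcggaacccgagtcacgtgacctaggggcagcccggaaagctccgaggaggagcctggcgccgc
Hbb-bs, chr7:103827879-103828178, minus strand: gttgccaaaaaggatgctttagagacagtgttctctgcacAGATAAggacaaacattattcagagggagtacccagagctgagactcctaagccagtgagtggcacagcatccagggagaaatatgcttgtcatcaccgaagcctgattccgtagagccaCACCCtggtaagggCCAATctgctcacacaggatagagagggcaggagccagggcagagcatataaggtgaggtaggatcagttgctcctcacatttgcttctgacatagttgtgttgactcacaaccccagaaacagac
Hbb-bt, chr7:103813874-103814173, minus strand: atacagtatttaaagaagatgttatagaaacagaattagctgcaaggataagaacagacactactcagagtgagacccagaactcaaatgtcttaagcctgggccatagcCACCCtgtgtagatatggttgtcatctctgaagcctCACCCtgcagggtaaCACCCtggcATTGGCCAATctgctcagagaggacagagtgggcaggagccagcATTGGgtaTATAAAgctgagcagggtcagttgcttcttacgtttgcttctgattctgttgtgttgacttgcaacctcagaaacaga

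The Sox core matched once, on the opposite strand of the Psmd8 promoter 41 bases before the start, and these letters were not in the windows of Picalm, Hbb-bs and Hbb-bt. Of 32544 promoters of this length, 10.6% hold the Sox core, 13.6% hold TATAAA, 37.4% hold CCAAT, 57.7% hold CACCC and 11.2% hold AGATAA. The Picalm window held none of the letters searched and was 78.0% G and C, against 53.7% in Psmd8. The windows of Hbb-bs and Hbb-bt, both adult beta globin genes, were identical at 223 of 308 aligned positions (72.4%). A match describes letters in a window and is no evidence of binding.

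Values are quantile normalised signals on the linear scale, in arbitrary units, given array by array in the order of the replicate numbers, and differences are on the log2 scale. The number of probes detected on an array (more than 2 SD over the average negative control) ran from 13997 to 17954, and arrays of a group correlated between 0.983 and 0.996. The 13 cardiomyocyte markers measured, of 15 listed, were detected on all 30 arrays. With 3 arrays per group, precision is limited.

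The 5 Hbb-b1 probes did not move together between the genotypes. In Sox6 KO ventricles, 4 of them were brighter than in controls and the other one, ILMN_2729513, was far dimmer, at every age. Psmd8 and Picalm were brighter in the KO at every age, with median differences of 2.63 and 1.84 over the 5 ages. The arrays of KO and control did not overlap in 34 of the 35 pairs of a probe and an age. How often that held over all tested probes was not counted, and the calls given next are another measure. Over all tested probes, 2.99%, 1.34%, 0.806%, 1.49% and 1.04% were called between the genotypes in the order of the ages, where a call is an adjusted p under 0.01 (limma) and at least 1.5-fold. In whole ventricles, fewer cells of a type and less RNA per cell cannot be told apart.

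**Figure D1:**
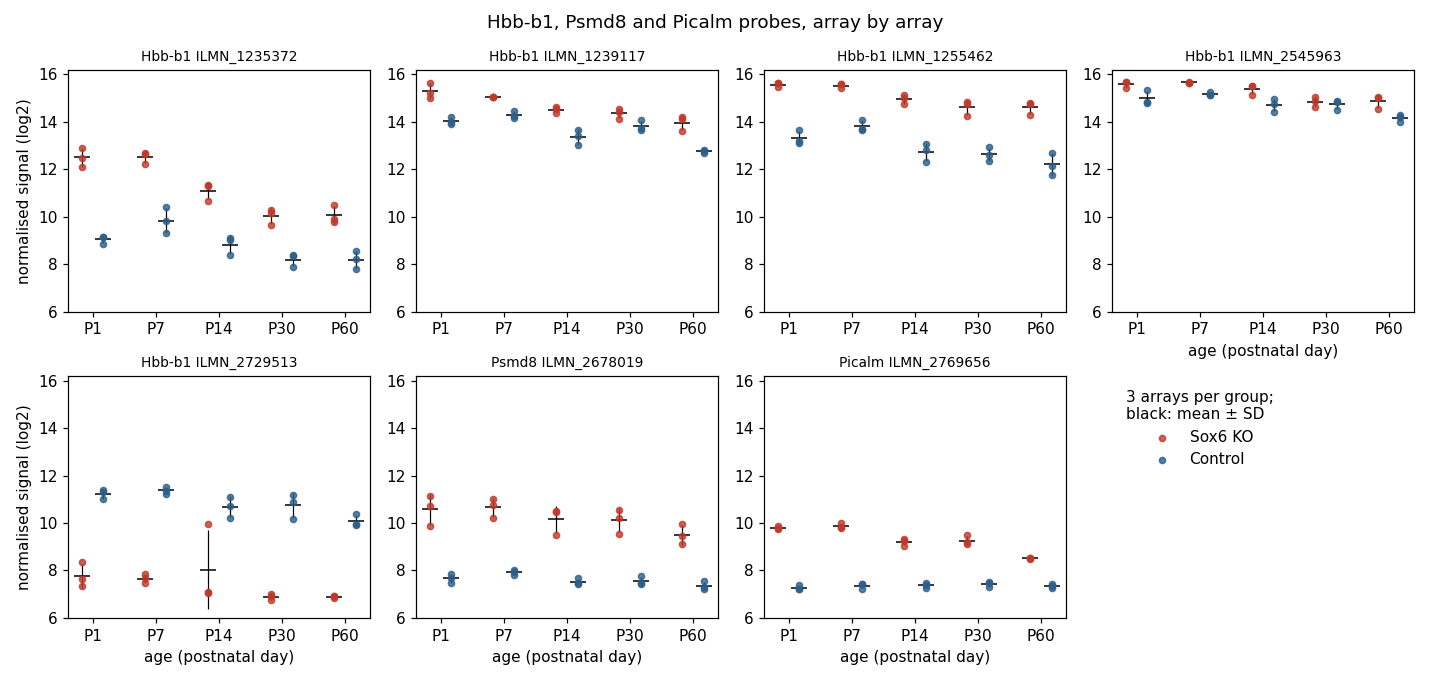
Normalised signal (log2) against age for the 7 probes, with Sox6 KO arrays in red to the left of control arrays in blue, 3 per group, and the mean ± SD in black. ILMN_2729513 is the only probe with KO below control, and 1 KO array at P14 lies far above the other two.

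Probe ILMN_2729513 gave 161, 202 and 324 in KO ventricles at P1, against 2520, 2645 and 2038 in control ventricles. At P7 it gave 203, 229 and 178 in KO ventricles, against 2402, 2969 and 2591 in control ventricles. At P14 it gave 137, 987 and 133 in KO ventricles, against 1660, 2195 and 1200 in control ventricles. KO arrays thus stayed below every control array of their own age, and only replicate 2 of KO P14 came near the controls.
At P30 this probe gave 108, 129 and 123 in KO ventricles, against 1154, 1895 and 2341 in control ventricles. At P60 it gave 123, 114 and 120 in KO ventricles, against 1319, 955 and 992 in control ventricles. In the KO, the signal was above the negative controls on 3 of 3 arrays up to P14, on 1 of 3 at P30 and on 0 of 3 at P60, while it was detected on all control arrays.
The log2 difference from P1 to P60 was -3.44, -3.71, -2.64, -3.85 and -3.18. As the probe was not above background in the KO at P60, that difference is a bound, at least 8.24-fold lower in KO. Without replicate 2 of KO P14, the difference at P14 was -3.60 and the KO mean there was 7.07, not 8.03. Over all ages, 14 of the 15 KO arrays lay below the lowest of the 15 control arrays (955), and that replicate, at 987, was the exception. On the same array the other 6 probes were above every control array of that age.

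ILMN_1235372 showed the opposite direction. This beta globin probe gave 4412, 5728 and 7654 in KO ventricles at P1, against 568, 568 and 464 in control ventricles. At P7 it gave 6508, 6365 and 4782 in KO ventricles, against 637, 1355 and 898 in control ventricles. At P14 it gave 2585, 1639 and 2510 in KO ventricles, against 550, 514 and 332 in control ventricles. The groups did not overlap at these ages, and both were lower at P14 than at P7.
At P30 it gave 801, 1131 and 1243 in KO ventricles, against 234, 323 and 333 in control ventricles. At P60 it gave 1440, 964 and 874 in KO ventricles, against 379, 221 and 300 in control ventricles. The differences from P1 to P60 were 3.45, 2.67, 2.27, 1.83 and 1.86, largest in newborn ventricles, where the fold was 10.9.

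ILMN_1255462 was also brighter in the KO at each age. It gave 45130, 50647 and 50647 in KO ventricles at P1, against 12844, 8860 and 9317 in control ventricles. At P7 it gave 49037, 50030 and 43465 in KO ventricles, against 12844, 17476 and 13150 in control ventricles. At P14 it gave 36216, 27595 and 32496 in KO ventricles, against 7226, 8486 and 5067 in control ventricles. These are among the brightest signals of the KO arrays.
At P30 it gave 19699, 27595 and 28936 in KO ventricles, against 5223, 6256 and 7756 in control ventricles. At P60 it gave 27595, 20190 and 28072 in KO ventricles, against 6685, 3521 and 4553 in control ventricles. The difference lay between 1.72 (P7) and 2.40 (P60), with a median of 2.24. The lowest of the 15 KO arrays, 19699 at P30, was above the highest of the 15 control arrays, 17476 at P7, although these arrays differ in age.

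The other pair of beta globin probes had smaller differences. ILMN_1239117 ran from 12375 to 51619 over the 15 KO arrays, with a median of 23745, and from 6643 to 22314 over the 15 control arrays, with a median of 13715. Its arrays did not overlap between the genotypes at any age, and the difference lay between 0.54 (P30) and 1.26 (P1). ILMN_2545963 ran from 23603 to 52742 over KO arrays, with a median of 43465, and from 16353 to 41797 over control arrays, with a median of 29432. Its differences were 0.60, 0.48, 0.67, 0.11 and 0.70 from P1 to P60, and at P30 the genotypes overlapped, with 24973, 30246 and 34125 in KO ventricles, against 23184, 29432 and 30246 in control ventricles. This probe was among the 50 brightest of an array on 23 of 30 arrays and reached the highest normalised signal of the data (52742). ILMN_1255462 was among the 50 brightest on 13 arrays and ILMN_1239117 on 6, while ILMN_1235372 and ILMN_2729513 never were. Nothing in the deposited table marks saturated probes, and whether the top of the range narrowed these differences was not tested.

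**Figure D2:**
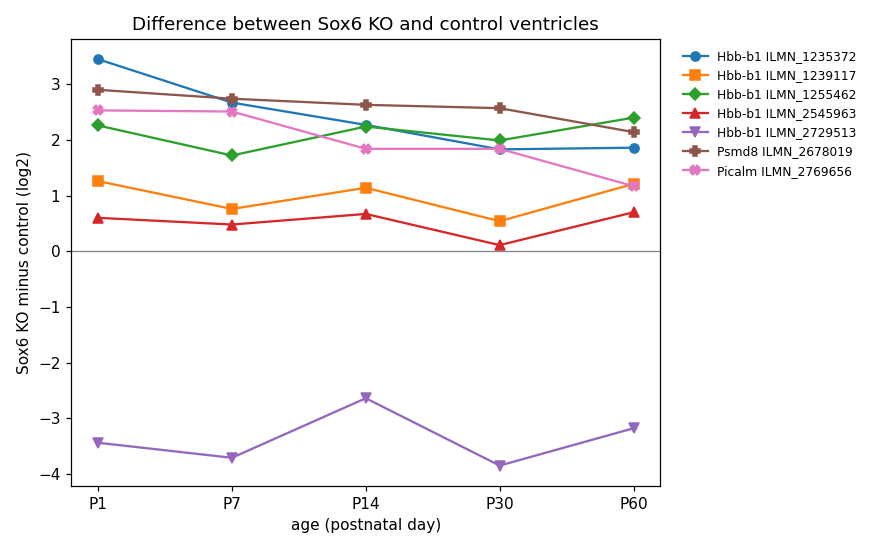
Sox6 KO minus control difference (log2 of normalised signal) against age, 1 line per probe. The lines of 6 probes stay above 0 at the 5 ages, and that of ILMN_2729513 stays between -3.85 and -2.64.

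Psmd8, the proteasome subunit, gave 1692, 2233 and 927 in KO ventricles at P1, against 230, 207 and 177 in control ventricles. At P7 it gave 1196, 2038 and 1756 in KO ventricles, against 259, 226 and 245 in control ventricles. At P14 it gave 1410, 1433 and 719 in KO ventricles, against 203, 176 and 172 in control ventricles. KO arrays of an age were far apart, but none came near the controls.
At P30 it gave 1508, 1186 and 749 in KO ventricles, against 216, 170 and 176 in control ventricles. At P60 it gave 990, 691 and 552 in KO ventricles, against 188, 148 and 159 in control ventricles. The differences from P1 to P60 were 2.90, 2.74, 2.63, 2.57 and 2.14. The SD between the 3 arrays of a group lay between 0.40 and 0.65 in KO groups and between 0.10 and 0.19 in control groups on the log2 scale. Every KO array (lowest 552) was above every control array (highest 259).

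Picalm, the clathrin assembly gene, gave 925, 863 and 890 in KO ventricles at P1, against 165, 149 and 150 in control ventricles. At P7 it gave 915, 1010 and 875 in KO ventricles, against 150, 171 and 171 in control ventricles. At P14 it gave 645, 530 and 613 in KO ventricles, against 178, 154 and 168 in control ventricles. Control arrays hardly differed between ages, while those of the KO were lower from P14 on.
At P30 it gave 580, 552 and 719 in KO ventricles, against 183, 175 and 157 in control ventricles. At P60 it gave 361, 370 and 364 in KO ventricles, against 171, 163 and 152 in control ventricles. The difference narrowed with age, with 2.53 at P1, 2.51 at P7, 1.84 at P14 and P30, and 1.17 at P60. Unlike Psmd8, its KO replicates lay close together, with SDs between 0.02 and 0.20. Every KO array (lowest 361) was above every control array (highest 183).

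Ordered by mean log2 signal, all 5 KO groups stood on one side of all 5 control groups for ILMN_1235372, ILMN_1255462, ILMN_2729513, Psmd8 and Picalm, but not for ILMN_1239117 and ILMN_2545963. Many neighbours in these orders were closer than the larger of their SDs. That was so for 8 of the 9 steps of ILMN_2545963, for 6 of 9 in ILMN_2729513, Psmd8 and Picalm, for 5 of 9 in ILMN_1235372 and ILMN_1239117 and for 4 of 9 in ILMN_1255462. Psmd8 and Picalm each had their highest KO means at P7 and P1, at 10.66 ± 0.40 and 10.57 ± 0.65 (SD, n = 3) for Psmd8 and at 9.86 ± 0.11 and 9.80 ± 0.05 (SD, n = 3) for Picalm, and these neighbours were within their spread. For ILMN_1235372, the lowest KO mean (10.02 ± 0.33 at P30) and the highest control mean (9.84 ± 0.54 at P7) were also within their spread.

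How the genes changed with age was tested within each genotype, which the selection had not used. Between P1 and P60, 6 of the 7 probes fell in the KO, where 11.1% of all tested probes were called lower, and 4 of 7 fell in controls, where 10.2% were. The median change over the 7 probes was -1.07 in the KO and -0.86 in controls, against 0.01 and -0.01 over all tested probes. The 7 probes stand for only 3 genes, and 5 of them carry the name Hbb-b1, so they are not independent. All 4 calls in controls were of Hbb-b1 probes. ILMN_1235372 fell by 2.44 ± 0.26 (SE) on the log2 scale in the KO (adjusted p = 6.01e-09, limma) and by 0.86 ± 0.26 in controls (adjusted p = 0.00665). ILMN_1239117 fell by 1.33 ± 0.16 in the KO (adjusted p = 6.12e-08, limma) and by 1.27 ± 0.16 in controls (adjusted p = 1.36e-07). The 2 other bright probes also fell in both genotypes, ILMN_1255462 by 0.96 in the KO and 1.10 in controls and ILMN_2545963 by 0.74 in the KO and 0.84 in controls. The change of ILMN_2729513 did not pass in either, at -0.88 ± 0.43 in the KO (adjusted p = 0.0796, limma), partly on signals below background, and -1.15 ± 0.43 in controls (adjusted p = 0.0254).
Psmd8 fell by 1.07 ± 0.27 in the KO (adjusted p = 0.00148, limma), against a change of -0.31 ± 0.27 in controls (adjusted p = 0.351). Picalm fell by 1.29 ± 0.09 in the KO (adjusted p = 1.33e-12, limma), against a change of 0.07 ± 0.09 in controls (adjusted p = 0.561). Whether these changes differ between the genotypes was not tested, since that difference is made of the values used in the selection. Over the 15 control arrays both genes were dim, between 148 and 259 for Psmd8 and between 149 and 183 for Picalm. The detection limit of an array lay between 103.1 and 139.1 on the deposited intensities. A fall hidden by background in controls was not tested for. Without replicate 2 of every group, the calls of Psmd8 (-0.76, adjusted p = 0.0876, limma) and ILMN_2545963 (-0.52, adjusted p = 0.0294) in the KO and of ILMN_1235372 in controls (-0.61, adjusted p = 0.121) were lost.

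**Figure D3:**
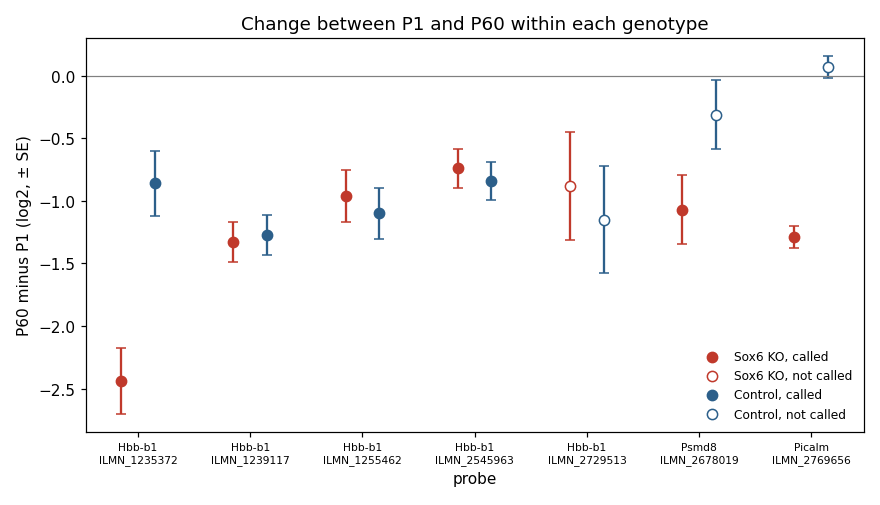
Change from P1 to P60 (log2 of normalised signal, ± SE from limma) for each probe, Sox6 KO in red left of control in blue, filled where called and open where not. Filled points are 6 of 7 in the KO and 4 of 7 in controls, and Picalm in controls sits at 0.07.

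Between neighbouring ages, none of the 7 probes was called from P1 to P7 in either genotype, where 5.5% of all tested probes were called in the KO and 5.08% in controls. From P7 to P14, ILMN_1235372 fell by 1.41 (adjusted p = 0.000165, limma) and Picalm by 0.65 (adjusted p = 3.72e-06) in the KO, where 2.88% of all tested probes were called lower. In controls, ILMN_1235372, ILMN_1239117 and ILMN_1255462 fell by 1.01, 0.92 and 1.08 over the same week (adjusted p between 0.000147 and 0.0063, limma), where 1.73% were. Of the 5 Hbb-b1 probes, 1 was thus called lower over this week in the KO and 3 in controls. The call of ILMN_1235372 was lost in the KO without replicate 2 of every group (adjusted p = 0.0166, limma) and in controls without replicate 2 (adjusted p = 0.107), without replicate 3 (adjusted p = 0.133) and without the filter (adjusted p = 0.0145). That of ILMN_1255462 in controls was lost without replicate 3 (adjusted p = 0.0327, limma). The change of ILMN_2729513 in the KO, which was not called, was 0.37 with all arrays and -0.59 without replicate 2 of KO P14. From P14 to P30, only ILMN_1235372 was called, lower in the KO (-1.08, adjusted p = 0.00174, limma), where 4.36% were, and none in controls, where 6.61% were called in either direction. That call was lost without replicate 1 (-0.77, adjusted p = 0.0205, limma) and without replicate 3 of every group (adjusted p = 0.0177). From P30 to P60, Picalm fell by 0.75 in the KO (adjusted p = 2.51e-06, limma), where 1.18% were, and ILMN_1239117 and ILMN_2545963 fell by 1.06 and 0.59 in controls (adjusted p = 3.08e-05 and 0.00709, limma), where 1.7% were. The call of ILMN_2545963 was lost without replicate 2 (adjusted p = 0.0693, limma), without replicate 3 (-0.44, adjusted p = 0.149), with normexp background correction (adjusted p = 0.0147) and without the filter (adjusted p = 0.0139). Psmd8 was called at none of these steps. Without replicate 2 of KO P14, the fall of Picalm from P7 to P14 was smaller (-0.57, adjusted p = 9.82e-05, limma) and under 1.5-fold.

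Other globin and red cell genes, leaving out Hbb-b1, were given by a list. Of 42 listed, 14 had a named probe. Called between the genotypes at 1 or more ages were 5 of the 14 (35.7%), against 5.36% of all tested probes. Over all named probes, members left out, the share was 9.87%. Hba-a1, an alpha globin gene, was lower in KO ventricles at P30 (-0.74, adjusted p = 0.00430, limma), with 19249, 26614 and 24795 in KO ventricles, against 28714, 42738 and 48131 in control ventricles. The Hbb-bs probe was lower at P30 (-1.26, adjusted p = 0.00837, limma), with 2893, 4038 and 5056 in KO ventricles, against 5793, 10711 and 12969 in control ventricles. At P1 the Hbb-bs probe differed the other way without being called (0.87, adjusted p = 0.0452, limma), with 27595, 34611 and 48131 in KO ventricles, against 28714, 16174 and 16074 in control ventricles, which overlap. Hbb-bt differed by between -0.61 and 0.00 at the 5 ages and was not called. None of these 3 globin probes was called higher in the KO at any of the 5 ages.
Slc4a1, the band 3 anion exchanger of the red cell membrane, rose in the KO at P7 by 1.13. Its probe has no name in the platform annotation and is named in the study's table of genes changed in the KO. Tfrc, the transferrin receptor that imports iron, fell at P1 by 1.11 and rose at P7 by 0.93. The median difference of the 14 genes lay between -0.11 (P14) and -0.01 (P7), close to that of all tested probes, which lay between -0.01 and 0.00. Without replicate 2 of every group none of the 14 was called, without replicate 3 it was 1, and without replicate 1 it was 7.
The summed signal of the 14 genes is made up largely of the globin probes. In controls at P1 the mean signal was 50093 for Hba-a1, 43428 for Hbb-bt and 20321 for Hbb-bs. Whether the sum measures red cell RNA was not tested. At P1 the sum lay between 129517 and 145317 on KO arrays and between 128383 and 141608 on control arrays. At P30 it lay between 63223 and 79566 on KO arrays and between 86885 and 127671 on control arrays. At P60 it lay between 65777 and 95187 on KO arrays and between 85697 and 104986 on control arrays. The sum, which leaves out the Hbb-b1 probes, overlapped between the genotypes at P1, P7, P14 and P60 and was lower in the KO without overlap at P30.

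**Figure D4:**
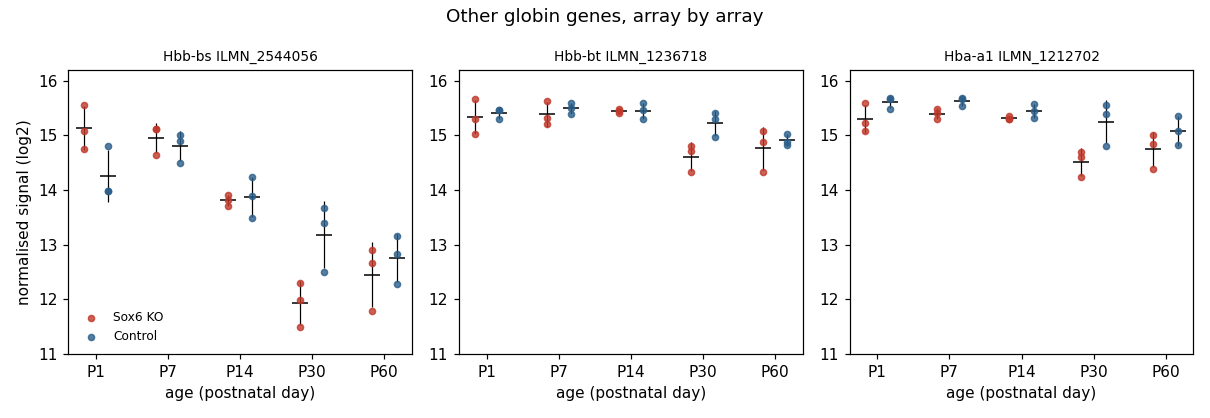
Normalised signal (log2) against age for Hbb-bs, Hbb-bt and Hba-a1, Sox6 KO arrays in red left of control arrays in blue, mean ± SD in black. At P30 the KO arrays are below the control arrays in each panel, and at P1 the mean of Hbb-bs is higher in the KO (0.87, not called).

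Genes that work with Psmd8 and Picalm were compared between the genotypes by list. At 1 or more ages, 5.36% of all tested probes and 9.87% of all named probes, members left out, were called. Of 21 listed subunits and assembly factors of the 19S particle, 16 were measured, and 0 were called at any age by limma. Their differences lay between -0.53 (Psmd11, P60) and 0.57 (Psmc4, P7), and 3 of the 16 had an adjusted p under 0.05 at 1 or more ages. The median of the 16 lay between -0.06 and 0.08, while Psmd8 itself was between 2.14 and 2.90. Psmc4, an ATPase of the particle that also lies on chromosome 7, and Psmd11, a lid subunit, passed the adjusted p (0.000303 and 0.000403, limma) but not the fold.
Of 35 listed clathrin coat, AP-2 and endocytic accessory genes, 22 were measured and 1 was called (4.55%). That share was near that of all tested probes and below that of all named probes. Vamp2, a vesicle SNARE that Picalm sorts, rose in the KO at P1 by 0.98 (adjusted p = 0.000396, limma) and differed by between -0.06 and -0.01 at the later ages. Their medians lay between -0.02 and 0.04, while Picalm was between 1.17 and 2.53. The call of Vamp2 was absent without replicate 2 and without replicate 3 of every group, where 0 genes of this list were called.
Markers of other cells differed between the genotypes at some ages. Atrial markers were higher at P7, where 3 of 5 were called (Myl4, Myl7 and Nppa). Of these, Myl7 has no name in the platform annotation and is named in the study's table of genes changed in the KO. The summed signal of the 5 lay between 9680 and 22437 on KO arrays and between 4718 and 5383 on control arrays. At P14 the sum lay between 3021 and 5298 on KO arrays and between 3355 and 4074 on control arrays, while the 7 probes differed as described, and the part of these markers in the values of the 7 probes was not tested. At P1, where no atrial marker was called, the sum lay between 92819 and 98577 on KO arrays and between 37530 and 87276 on control arrays, and at P30 only Myl4, an atrial light chain, was called higher (2.09). The summed signal of 8 endothelial markers was lower in the KO without overlap at P7, between 13294 and 15291 on KO arrays and between 16995 and 17219 on control arrays. It was also lower without overlap at P14, between 12893 and 13857 on KO arrays and between 15948 and 16678 on control arrays, and at P30, between 6688 and 8251 on KO arrays and between 8922 and 9289 on control arrays. The sum of the 13 cardiomyocyte markers was lower without overlap at P1, between 254163 and 272960 on KO arrays and between 282245 and 313016 on control arrays. At P30 it was higher in the KO without overlap, between 342203 and 348218 on KO arrays and between 325328 and 338882 on control arrays. The sum of 3 white blood cell markers was higher in the KO without overlap at P14 and P60, and lower without overlap at P30. The 1 skeletal muscle marker measured was lower without overlap at P7, P14 and P60. How often groups of 3 arrays separate in this way was not counted, for these lists or for the red cell list. The separations are therefore description only. The part of these sums in the values of the 7 probes was not tested either.

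Sox6 and the 3 genes are spread over chromosome 7. In the order of its 2028 protein-coding genes in RefSeq, Psmd8 is number 603, Picalm 1203, Hbb-bt and Hbb-bs 1389 and 1390 and Sox6 1610. Hence 1007 places lie between Psmd8 and Sox6, 407 between Picalm and Sox6 and 220 between Hbb-bs and Sox6. The nearest named genes on each side of Psmd8, Picalm, Hbb-bt and Sox6 were compared as neighbours. Hbb-bs, the other gene of the beta globin pair, counted as a neighbour of Hbb-bt, whose other neighbours lie 72 to 80 places away. This gave 24 probes in all. Of these, 3 (12.5%) were called at 1 or more ages, near the 11.5% of named chromosome 7 probes and 9.87% of all named probes, and 0 at all 5 ages by limma, against 0.243% of all named probes, members left out. Tmem126b, which helps assemble mitochondrial complex I and lies 6 places from Picalm, was higher in the KO at P7 (0.67) and P30 (0.69). Rrm1, a subunit of ribonucleotide reductase 78 places from Hbb-bt, was higher at P1 (1.00) and P7 (0.96). Hbb-bs was the third. Eed, a Polycomb subunit next to Picalm, differed by between -0.28 and 0.28, and Rras2, a Ras-like GTPase 8 places from Sox6, by between -0.58 and 0.13.

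Among all tested probes, 31 (0.172%) were called the same way between KO and control at all 5 ages, which share no arrays, with 27 higher and 4 lower in the KO. Of the 31, 5 are probes of Hbb-b1, Psmd8 and Picalm, which were chosen for it, 4 are other named probes of chromosome 7, 12 are named probes of other chromosomes and 10 have no name here. The 4 on chromosome 7 are Mrps12, a mitochondrial ribosomal protein (median difference 1.15), Ush1c, the scaffold protein harmonin (0.93), Pgap2, which remodels GPI anchors (0.71), and Lcmt1, a methyltransferase of the phosphatase PP2A (-0.89). Mrps12 lies 19 places before Psmd8, at 584, and Lcmt1 80 places beyond Sox6. All 4 have no name in the platform annotation and are named in the study's table of genes changed in the KO. Other probes of these genes differed. A second Lcmt1 probe, ILMN_2943476, was called at no age (median difference 0.005), nor was a second Pgap2 probe, ILMN_1235347 (0.396). A second Mrps12 probe, ILMN_1254734, was called higher at 4 ages (0.967). Among probes that the platform annotation names, members left out, 0 of 435 on chromosome 7 were called at all 5 ages by limma, against 8 of 5638 (0.142%) on other chromosomes. Psmd8, which the platform also names and which was called at all 5 ages, is a member and so is not among the 435. Called at 1 or more ages were 37 of those 435 (8.51%), against 407 of 5638 (7.22%). On chromosome 14, 4 of 203 (1.97%) were called at all 5 ages.
On the other chromosomes, the named probes were those of Supt16 (Rpgrip1 in the study's table), Gm5801 (Ube2j2 there), Psmb5, Slc25a17, 1110028C15Rik, Nudt6, Ccdc124, Epb41l2, Myocd and Zkscan17, with median differences between -0.89 (Nudt6) and 1.53 (Supt16), and 2 more. Of the 464 named chromosome 7 probes with a place in the order, members left out, 449 (96.8%) had a median difference within 0.5 of 0, and the highest was 1.15.

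**Figure D5:**
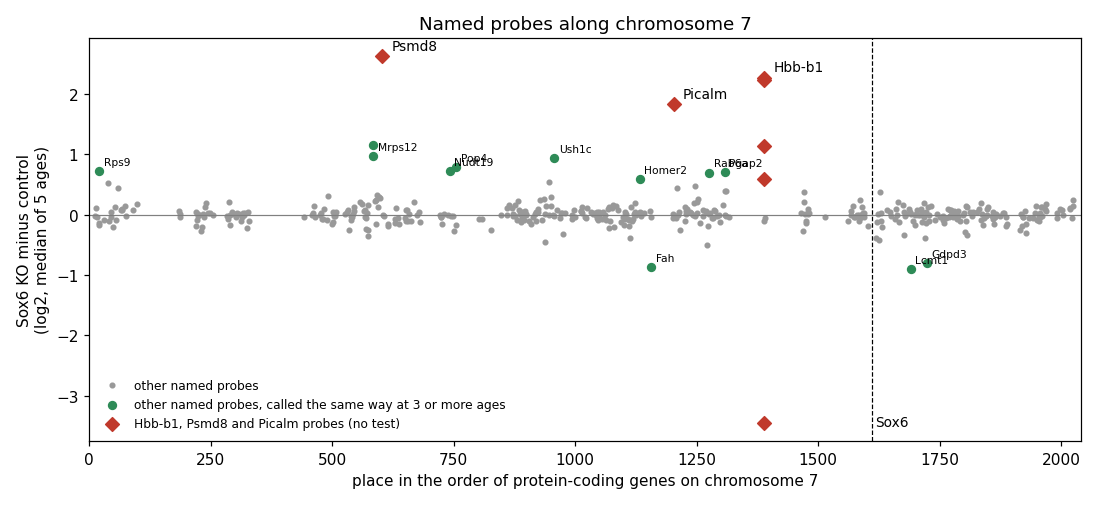
Sox6 KO minus control difference (log2, median of the 5 ages) of named probes against the order of protein-coding genes on chromosome 7, with the 7 Hbb-b1, Psmd8 and Picalm probes as red diamonds, probes called the same way at 3 or more ages in green (9 higher, 3 lower) and Sox6 as a dashed line. Hbb-b1 is drawn at the place of Hbb-bt (1389), and the red diamonds lie further from 0 than most grey points.

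Likeness of pattern was measured as the root mean square difference of the 10 group means, each profile centred on its own mean. The closest named probe to Psmd8 was Picalm (0.35), and the next was ILMN_1255462 of Hbb-b1 (0.38). Picalm was closest to Psmd8 (0.35), then to Supt16 on chromosome 14 (0.38) and ILMN_1255462 (0.45). The Hbb-b1 probe ILMN_1255462 was closer to Psmd8 (0.38) and Picalm (0.45) than to the next beta globin probe, ILMN_1235372 (0.52). ILMN_1235372 was closest to ILMN_1255462 (0.52), Psmd8 (0.63) and Picalm (0.71). ILMN_1239117 was closest to Zkscan17 on chromosome 11 (0.26), ILMN_2545963 (0.32) and Pop4, on chromosome 7 (0.37). ILMN_2545963 was closest to Adgra3 (0.18), Selenon (0.19) and Mfap3 (0.20), and ILMN_2729513 had no close match, with Ipo9 nearest (1.25) before Hspb7 (1.31) and Ppp1r14c (1.33). The 10 group means include the KO and control difference for which the members were proposed. Likeness between members thus follows in part from their selection. As all of these probes also came from the same 30 arrays, the values describe shapes only.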

How the data were processed

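The authors exported probe signal intensities from the scanner files with IlluminaExpressionFileCreator and deposited them as linear intensity values without normalisation between arrays. No version is named in the sources used here. Detection p-values of the table are empty, so 936 of the 974 control rows that close the table were read as negative controls from the range of their IDs. A probe was kept where all 3 arrays of any group exceeded their mean plus 2 SD (17997 of 45281). Intensities were log2 transformed, quantile normalised over the 30 arrays and fitted with limma 3.58.1 in R 4.3.3, with 1 mean per group, 20 residual and 6.72 prior degrees of freedom. Two-sided p-values were adjusted across all tested probes per comparison (Benjamini-Hochberg). Calls required 1.5-fold or more with an adjusted p below 0.01, as in the study. A second deposited intensity table, quantile normalised by the authors, holds Psmd8 and Picalm and served as an alternative. Lists take 1 probe per gene, the brightest.

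Probes were named through the platform annotation and the study's gene tables (6619 tested probes). Chromosomes and gene order come from RefSeq (GRCm38.p6). The files name no build, and no probe sequences were used. The members, lists and tests were chosen with earlier results of these data known. Named genes are all member probes, the list genes called (up to 4 per list and all of a count of 5 or fewer), up to 10 probes called at all 5 ages on chromosome 7 and 10 elsewhere, the 3 most similar probes of each member and 3 neighbours on each side. The values of 1 called gene of the red cell list are not reported here. Psmc4 and Psmd11 were singled out after they were seen. The endothelial, white blood cell and skeletal muscle lists gave 1 of 8, 1 of 3 and 0 of 1 measured genes called between genotypes at 1 or more ages, and the ventricular list 3 of 13. The fit was tested on simulated data. The study's methods describe biological replicates but also mention hybridising each of them 3 times, and how the 3 arrays of a group map to animals was not settled from the sources, so p-values measure the spread between these arrays, which may be technical in part. Alternatives were the background correction, the scaling, the filter, the replicate number as a block, the 2 groups alone, another call rule and each replicate number left out.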

Additional observations from a re-analysis of the deposited data

Results flagged for a closer look

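The effect of the KO differed between ages for 5 genes among the 79 list, chromosome 7 and neighbour probes examined (limma's F test on the 4 differences of the KO effect from that at P1, adjusted p under 0.01), as it did for 6.23% of all tested probes. For Tfrc the KO minus control difference in order of age was -1.11, 0.93, -0.35, 0.33 and 0.73 (adjusted p = 9.13e-06, limma). For Rrm1 it was 1.00, 0.96, 0.33, 0.40 and 0.28 over the same ages (adjusted p = 0.000791, limma). For Gypc, a red cell membrane protein, it was -0.52, 0.24, -0.33, 0.29 and 0.19 (adjusted p = 0.00407, limma). For Rras2 it was 0.13, -0.19, -0.17, -0.58 and -0.27 (adjusted p = 0.00786, limma), and for Psmd11 -0.15, 0.08, 0.02, -0.02 and -0.53 (adjusted p = 0.0081, limma). The Hbb-b1, Psmd8 and Picalm probes were not put to this test, and groups of 3 arrays were not screened for outlying values.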

How the results depend on the processing

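Every called change of a member probe with age kept its direction under the alternatives run, as did the median KO minus control difference of each member probe. For the list genes and all other probes only calls were counted, so their direction was not compared. Among changes not called, that of ILMN_2729513 in the KO from P7 to P14 (0.37) was -0.49 without replicate 2 of every group and -0.59 without replicate 2 of KO P14, and that of Picalm in controls from P1 to P60 (0.07) was 0.00 on probes detected on all arrays. With normexp background correction more probes passed. Between KO and control it called 1080 at P1, 379 at P7, 494 at P30 and 342 at P60, against 538, 241, 268 and 188 as reported. For ages it called in the KO 2298 (P7 against P1), 2313 (P14 against P7), 3675 (P30 against P14), 1232 (P60 against P30) and 7580 (P60 against P1), and in controls 1989, 1398, 2897, 1547 and 6918. It moved the median KO minus control difference of ILMN_2729513 to -4.57, of Psmd8 to 3.46 and of Picalm to 2.79. With each pair of groups fitted alone, 44 probes were called at P1, and with only probes detected on all arrays 149 at P7. With one replicate number left out, KO against control gave 224 to 1096 probes at P1, 148 to 199 at P7, 77 to 135 at P14 (145 as reported), 155 to 259 at P30 and 111 to 164 at P60. The red cell list (5 genes) gave 3 with normexp, 3 without the filter, 2 with groups fitted alone and 0 to 7 with a replicate left out. The proteasome list (0 genes by limma) gave 2 with normexp and 0 to 1, and the clathrin list (1 gene) 0 with groups fitted alone and 0 to 3. Probes called at all 5 ages (31) numbered 19 on probes detected on all arrays, 17 with groups fitted alone, 67 at an adjusted p under 0.05 without a fold minimum and 21 without any of the replicates. The other chromosome 7 probes among them (4) numbered 1 with groups fitted alone, 10 at that looser rule and 2 to 3 with a replicate left out. For member probes between P1 and P60, 6 values lost their call and 4 gained one, and between neighbouring ages 13 lost it. ILMN_2729513 was called lower in the KO with normexp (-2.08) and in controls with median scaling (-1.42). Same-numbered arrays of different groups did not deviate together (correlations -0.231 to 0.106), so the numbers do not pair them, and with the replicate number as a block 30 probes were called at all 5 ages and 4 red cell genes. Leaving out replicate 2 of KO P14 was added after the data were seen. Signals near background, as those of ILMN_2729513 in the KO, limit a difference to a bound.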
